A study of Caenorhabditis elegans with 53 samples.

Results

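Total nuclei of whole Caenorhabditis elegans larvae were compared between the fourth larval stage (L4, 4 libraries) and the second (L2, 3 libraries). These 7 libraries were taken by their labels from the 53 libraries of a study of postembryonic change in neurons, and no measured value entered their choice. L4 animals were collected 40 ± 2 h after synchronized L1 larvae were plated, with about 200000 animals pooled per replicate, and L2 animals 21 ± 1 h after plating, with about 600000. All animals of both stages were controls that carried otIs790, a UPN INTACT transgene by which neuronal nuclei can be pulled down, and they grew on plates with NA22 bacteria. The input libraries described here hold the nuclear RNA of all tissues before that pulldown. The pulled-down neuronal nuclei (neuronal IP, 6 L4 and 5 L2 libraries) were also part of the fit. Their changes are given only as a comparison at the end. The labels do not say that replicates came from separate cultures, so the p-values below measure the spread between libraries. That spread was estimated over 38 control libraries of all stages and fractions, of which these 7 are a part. Levels are relative to each library's total, so a gene's level can also fall when RNA of other tissues makes up more of the library. In such bulk samples this, fewer cells of a type and less RNA per cell cannot be told apart.

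Larval development of C. elegans runs through 4 stages separated by molts, and the heterochronic pathway, a cascade of transcription factors, RNA-binding proteins and microRNAs, sets which events belong to which stage. Between L2 and L4 the hermaphrodite gonad expands, germ cells enter meiosis and make sperm before oocytes, the vulva and uterus form, and the epidermis prepares the adult cuticle. Most neurons, body wall muscles and pharyngeal cells are already present at L2.

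Input libraries held 9960845 to 14838870 counts at L4 and 15610163 to 30335984 at L2. Of 41897 genes in the table, 21040 passed the filter on low counts and were tested with edgeR's quasi-likelihood test (Benjamini-Hochberg adjusted p under 0.05 is called here). Levels are TMM-scaled CPM, counts relative to the library's scaled total, and fold changes are L4 over L2. L4 replicates 1, 2 and 3 correlated with each other at r = 0.988 to 0.992 over genes (log2 scale), but L4 replicate 4 correlated with them at 0.913 to 0.918 and with the L2 libraries at 0.792 to 0.806, where replicates 1 to 3 gave 0.676 to 0.724. In this library the germline, oocyte and yolk lists were lower and the pharynx and neuropeptide lists higher than in the other L4 libraries, while the major sperm protein list lay within their range. L2 replicate 4 had less cuticle collagen RNA than the other L2 libraries, and L2 libraries correlated at 0.948 to 0.988. What set these libraries apart was not tested, and results are given with and without L4 replicate 4.

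At L4 4977 genes (23.7% of those tested) were higher and 4359 (20.7%) were lower than at L2. Without L4 replicate 4, 5228 of 21131 (24.7%) were higher and 4879 (23.1%) were lower. These percentages are the background against which the counts of each gene list are read. The median log2 fold change of all genes tested was -0.15, or -0.14 with genes at 0 in one stage set to a bound from 3 counts over that stage. This split depended on scaling and on the libraries included. Median-ratio (RLE) factors gave 4424 higher and 5046 lower and moved the median gene's fold change by -0.13 on the log2 scale. TMM factors over the authors' neuronal set gave 6038 higher and 2655 lower and moved it by 0.47. Lower genes also outnumbered higher genes when any library other than L4 replicate 4 was left out. Without L2 replicate 1, 2 or 4 there were 3406, 3445 and 3799 higher and 4550, 4408 and 5138 lower. Without L4 replicate 1, 2 or 3 there were 3711, 3688 and 3870 higher and 4395, 4244 and 4354 lower. Of all genes tested, 21% were higher and 24% lower under RLE scaling, 28.7% and 12.6% under scaling on the neuronal set, 22% and 24.7% with DESeq2, 25.7% and 23.6% with the 16 input libraries of all stages alone, and 27.1% and 26.8% with the 7 libraries alone. Directions below that turn under one of these scalings are named as such.

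Of the genes that hold larvae in early programs, lin-14 and hbl-1 were lower at L4, and lin-29 and mab-10, which carry out the switch to adulthood, were higher. The nuclear factor lin-14, which specifies the earliest larval fates, had 63.5, 59.1, 57.2 and 63.2 CPM in the 4 L4 libraries, against 119, 113 and 178 CPM in the 3 L2 libraries. It was 2.25-fold lower (log2 fold change -1.17 ± 0.27, SE, adjusted p = 0.000659) with no overlap between stages. The zinc-finger gene hbl-1, a brake on L2-to-L3 progression, had 32.6, 27.1, 25.6 and 55.7 CPM at L4 and 107, 100.2 and 93.8 CPM at L2, a log2 fold change of -1.51 ± 0.49 (adjusted p = 0.012). All 4 L4 libraries lay below every L2 library, with replicate 4 the highest of the L4 values. The nuclear receptor daf-12 (68.9, 61.8, 57.5 and 82.5 CPM at L4 and 233, 278 and 157 CPM at L2) was 3.29-fold lower (adjusted p = 2.89e-05), and lin-46, which acts downstream of lin-28 and against hbl-1 in the move past L2 fates, was 7.28-fold lower (adjusted p = 0.000691). The falls of the RNA-binding genes lin-28 and lin-41 were smaller, with log2 fold changes of -0.63 ± 0.25 (adjusted p = 0.0397) and -0.91 ± 0.34 (adjusted p = 0.0291). For lin-28 the stages overlapped, at 11.02, 10.2, 12.3 and 7.73 CPM in L4 and 12.1, 15.5 and 20.2 CPM in L2. Without L4 replicate 4 the fall of lin-28 (-0.51, adjusted p = 0.111) and that of lin-41 (-0.70, adjusted p = 0.0991) did not pass the threshold. For lin-46, leaving out L4 replicate 4 gave a log2 fold change of -3.83.

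On the late side, mab-10, the NAB-type cofactor of LIN-29, had 57.1, 59.8, 43.3 and 165 CPM at L4 and 11.5, 4.17 and 10.1 CPM at L2. It was 9.49-fold higher (log2 fold change 3.25 ± 0.56, adjusted p = 2.95e-05), and L4 replicate 4 stood above the other L4 libraries. The zinc-finger gene lin-29, the trigger of the larval-to-adult switch in the epidermis, had 35.1, 31.5, 27.1 and 81.4 CPM at L4 and 19.8, 19.1 and 12.8 CPM at L2 (log2 fold change 1.34 ± 0.38, adjusted p = 0.00421). Apart from these late genes, the period-related gene lin-42 is also in the list of molting-cycle regulators, and its RNA cycles with the molts. It had 422, 384, 382 and 379 CPM at L4 and 151, 136 and 51.5 CPM at L2 (log2 fold change 1.80 ± 0.55, adjusted p = 0.00803). For all 3 the stages did not overlap. For mab-10, leaving out L4 replicate 4 gave a log2 fold change of 2.64. For lin-29, leaving out L2 replicate 4 gave a log2 fold change of 0.92 (adjusted p = 0.0961). For lin-42, leaving out L2 replicate 2 gave a log2 fold change of 1.72 (adjusted p = 0.0527) and L2 replicate 4 gave 1.17 (adjusted p = 0.145).

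The microRNA genes of the pathway gave few counts, which come from their loci and do not measure the mature RNAs. The let-7 locus had 2.44, 1.72, 1.82 and 3.14 CPM at L4 and 0.68, 0.0333 and 0.869 CPM at L2, with no overlap but a log2 fold change of 2.13 ± 0.996 that did not pass the threshold (adjusted p = 0.0793). The log2 fold changes of mir-48 (1.88 ± 1.12, adjusted p = 0.173), mir-241 (1.19 ± 0.79, adjusted p = 0.224) and lin-4 (0.33 ± 0.92, adjusted p = 0.799) did not pass either, and their stages overlapped. Over the whole list, 4 of 21 heterochronic genes tested rose and 7 fell (4 and 5 without L4 replicate 4, and 7 and 4 under scaling on the neuronal set). Its median of -0.08 became 0.40 under scaling on the neuronal set and 0.01 without L4 replicate 4.

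Among 10 regulators of the molting cycle, 2 rose and 2 fell with and without L4 replicate 4, and the median of 0.07 became -0.07 under RLE scaling and -0.02 without L4 replicate 4. The nuclear receptors nhr-25, required in the epidermis for molting, and nhr-85, which takes part in the timed transcription of lin-4, fell. Their log2 fold changes were -2.198 ± 0.47 (adjusted p = 0.000289) and -1.47 ± 0.30 (adjusted p = 0.000207). In nhr-25 the L4 libraries had 10.6, 8.78, 11.4 and 14.6 CPM and the L2 libraries 57.4, 63.9 and 35.1 CPM. The receptor nhr-23, a driver of the molting cycle, had 72.2, 77.8, 50.01 and 94.3 CPM at L4 and 52.8, 31.6 and 38.03 CPM at L2, overlapping levels with a log2 fold change of 0.85 ± 0.41 (adjusted p = 0.0854).

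**Figure D1:**
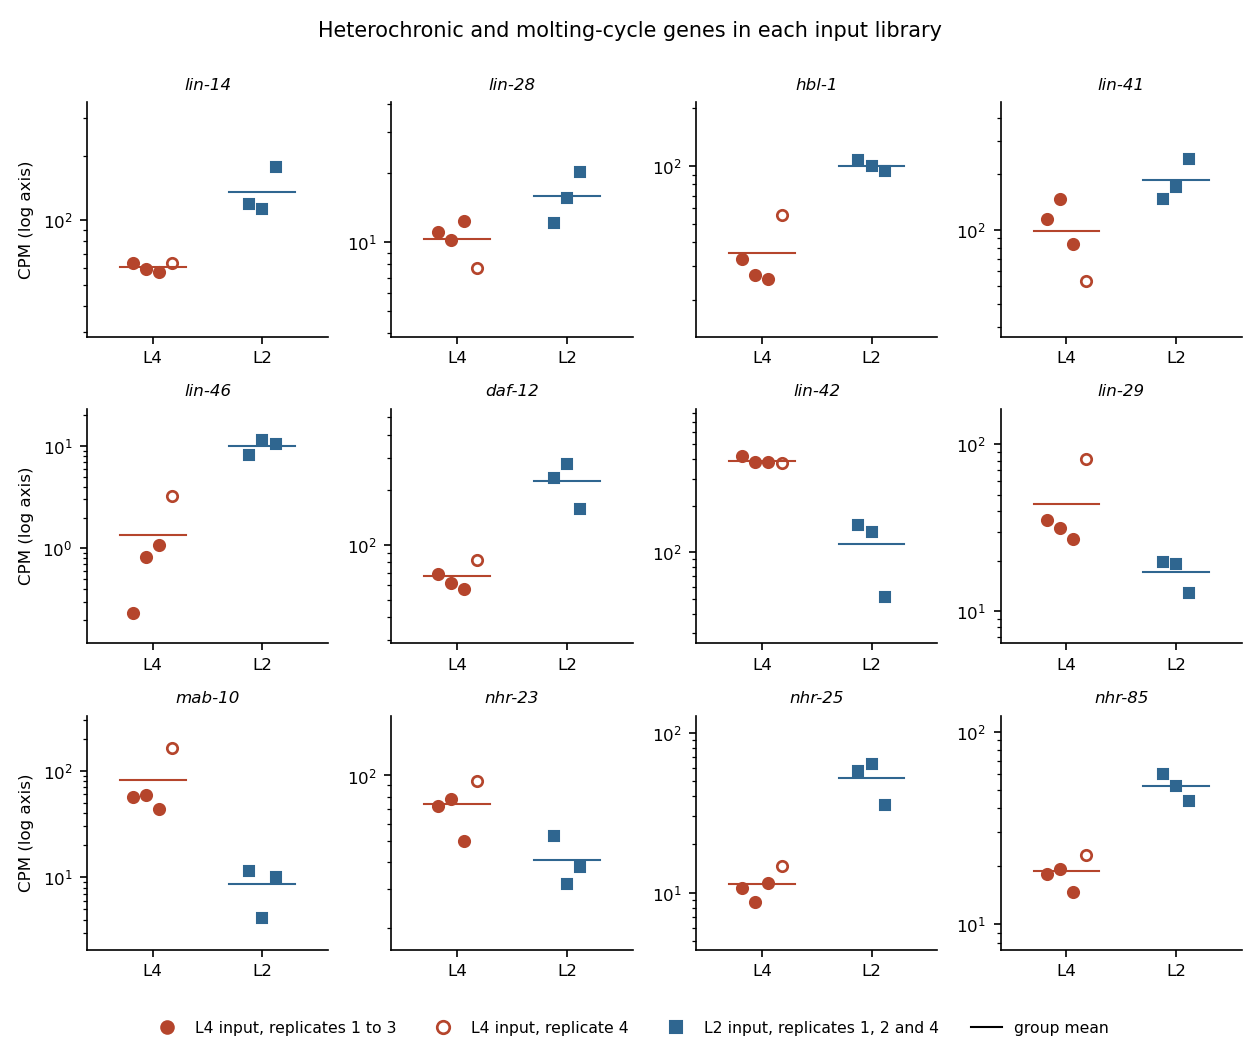
CPM of 12 heterochronic and molting-cycle genes in the 4 L4 and 3 L2 input libraries, on a log axis per gene, with bars at group means. Those named by rank from a list had to show no overlap of the stages. Every L4 library lies below every L2 library for lin-14, hbl-1, lin-41, lin-46, daf-12, nhr-25 and nhr-85 and above it for lin-42, lin-29 and mab-10, and L4 replicate 4 (open circles) stands apart for lin-29 and mab-10.

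Genes of germline identity and of meiotic chromosomes rose. All 28 genes of germline identity and proliferation and all 36 meiotic chromosome genes tested rose, with medians of 2.80 and 2.66 on the log2 scale (28 and 36 without L4 replicate 4). Summed over the list, germline identity genes had 5218, 6509.6, 5532 and 2396 CPM in the L4 libraries, against 818, 836 and 1026 CPM in the L2 libraries. L4 replicate 4 was the lowest of the L4 libraries and still above every L2 library. The Notch receptor glp-1, which keeps distal germ cells mitotic, had 239.6, 259.6, 198 and 93.1 CPM at L4 and 19.6, 15.4 and 34.9 CPM at L2 (log2 fold change 3.08 ± 0.48, adjusted p = 7.37e-06). The Vasa-like helicase gene glh-1 of the P granules was 6.604-fold higher (adjusted p = 1.21e-06). Larger rises were seen for gld-1, a translational repressor of meiotic germ cells (22.2-fold higher, adjusted p = 2.66e-06), and for nos-1 of the Nanos family (14.5-fold higher, adjusted p = 1e-05). The stages did not overlap for the fixed markers glp-1 and glh-1, and genes named by rank from a list had to show no overlap.

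Genes of meiotic chromosome structure rose together. The axis protein gene him-3 had 66.3, 76.3, 64.3 and 30.1 CPM at L4 and 1.90, 3.10 and 4.92 CPM at L2 (log2 fold change 4.17 ± 0.56, adjusted p = 9.69e-07). The synaptonemal complex genes syp-1 and syp-4 were 12.1-fold higher (adjusted p = 4.93e-08) and 15.6-fold higher (adjusted p = 2.93e-07), and the meiotic cohesin gene rec-8 was 7.05-fold higher (adjusted p = 1.36e-06). No library of one stage reached the level of the other for these genes, which was a condition for those named by rank from the list. Of 14 genes of germline sex determination, 8 rose and 0 fell (9 and 1 without L4 replicate 4), with a median of 0.77. Among them fog-2, an F-box gene needed for hermaphrodite sperm, was 5.84-fold higher (adjusted p = 4.92e-05), and rnp-8, which acts with the poly(A) polymerase GLD-2 on the oocyte side, was 15.5-fold higher (adjusted p = 5.49e-06). The sperm-fate gene fog-3 had overlapping levels of 3.78, 5.003, 1.28 and 7.17 CPM at L4 and 2.18, 1.67 and 3.38 CPM at L2 (log2 fold change 0.85 ± 0.64, adjusted p = 0.29).

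Sperm genes were near 0 at L2 and abundant at L4. The 31 major sperm protein genes tested, which encode the motor and signaling protein of nematode sperm, all rose (31 without L4 replicate 4), with a median log2 fold change of 9.51. Of these, 11 had 0 counts in every L2 library, and with those at their lower bound the median was 9.10. Their summed level was 997, 937, 685 and 907 CPM in the L4 libraries, against 1.18, 0.50 and 2.51 CPM in the L2 libraries, so L4 replicate 4 lay within the range of the other L4 libraries. These genes are near-identical copies, and how the authors assigned shared reads is not given, so single members such as msp-79 (88.9, 80.1, 49.9 and 65.5 CPM at L4 and 0 at L2) and msp-3 (28.8, 29.04, 22.5 and 29.2 CPM at L4 and 0 at L2) are uncertain. Set against a floor of 3 counts over the L2 group, msp-79 was at least 1884-fold higher at L4 and msp-3 at least 731-fold higher.

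Of 53 other sperm genes tested, 51 rose and 0 fell (49 of 52 and 0 without L4 replicate 4), with a median of 7.10, or 6.11 with members at 0 in L2 set to their bounds (14 had no count at L2). The ferlin gene fer-1, needed for membrane fusion in sperm, had 121, 115, 97.7 and 92.7 CPM at L4 and 0.536, 1.27 and 1.303 CPM at L2 (log2 fold change 6.69 ± 0.69, adjusted p = 2.31e-08). The sperm surface gene spe-9, required for fertilization, was 22.8-fold higher (adjusted p = 5.29e-06), and the sperm phosphatase gene gsp-3 was 585-fold higher (adjusted p = 0.000115). No L2 library had a count for 3 of them, the sperm chromatin genes spch-1 (73.4, 81.6, 72.6 and 63.1 CPM at L4, at least 1879-fold higher) and spch-2 (109.8, 102, 88.6 and 119.6 CPM at L4, at least 2822-fold higher) and the nematode-specific peptide gene nspd-2 (25.5, 26.98, 27.8 and 45.8 CPM at L4, at least 871-fold higher). For spe-9, leaving out L2 replicate 1 gave a log2 fold change of 3.78 and L2 replicate 4 gave 5.29. For gsp-3, leaving out L2 replicate 1 gave a log2 fold change of 8.39.

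Oocyte and yolk genes rose as well, and L4 replicate 4 was below the other L4 libraries in both lists. Of 26 oocyte and eggshell genes, 25 rose and 1 fell, the same counts as without L4 replicate 4, with a median of 4.27. Their sum was 5877, 7492, 4821 and 1436 CPM in the L4 libraries, against 382, 396 and 495 CPM in the L2 libraries. The oocyte maturation gene oma-1 had 115, 133, 89.4 and 29.7 CPM at L4 and 2.68, 1.2999 and 5.31 CPM at L2 (log2 fold change 4.90 ± 0.77, adjusted p = 9.58e-06), and the yolk receptor gene rme-2 was 25.4-fold higher (adjusted p = 4.02e-06). In both genes L4 replicate 4 was the lowest L4 library and above all of L2. The eggshell permeability barrier genes perm-4 and perm-2 were 1812-fold higher (adjusted p = 1.61e-05) and 354-fold higher (adjusted p = 3.95e-05). The member that fell was the caveolin gene cav-1, at 0.236, 0.328, 0.214 and 0.336 CPM in L4 and 14.5, 17.3 and 18.3 CPM in L2 (log2 fold change -5.85 ± 0.63, adjusted p = 4.44e-08).

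All 6 yolk protein genes, which the intestine transcribes for export to oocytes, rose with and without L4 replicate 4, with a median of 6.87. The vitellogenin gene vit-2 had 976, 1009, 972 and 348 CPM at L4 and 1.93, 0.967 and 11.4 CPM at L2 (log2 fold change 7.45 ± 1.11, adjusted p = 5.15e-06). For vit-6 the L4 libraries had 1099, 1212, 1159.7 and 312 CPM and the L2 libraries 1.43, 1.03 and 15.2 CPM (log2 fold change 7.34 ± 1.25, adjusted p = 2.87e-05). L4 replicate 4 was low and L2 replicate 4 high for both, and the stages stayed apart. For oma-1, leaving out L2 replicate 2 gave a log2 fold change of 4.30. For perm-2, leaving out L2 replicate 1 gave a log2 fold change of 7.83, L2 replicate 2 gave 7.58 and L2 replicate 4 gave 10.34. For vit-2, leaving out L2 replicate 2 gave a log2 fold change of 6.76 and L2 replicate 4 gave 8.85. For vit-6, leaving out L2 replicate 1 gave a log2 fold change of 6.68, L2 replicate 2 gave 6.64 and L2 replicate 4 gave 9.28.

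Most cell division genes rose. Of 46 tested, 41 rose and 1 fell (42 and 2 without L4 replicate 4), with a median of 1.69. The cyclin B gene cyb-1, which drives mitotic entry, had 198, 209, 170.2 and 102 CPM at L4 and 9.01, 8.63 and 17.4 CPM at L2 (log2 fold change 3.86 ± 0.51, adjusted p = 8.45e-07), and the replicative helicase gene mcm-2 was 2.64-fold higher (adjusted p = 0.00244). The exception was cdk-4, the G1 kinase of postembryonic divisions, at 0.866, 0.82, 2.24 and 4.37 CPM in L4 and 6.26, 5.80 and 8.06 CPM in L2 (log2 fold change -1.67 ± 0.42, adjusted p = 0.00168). For mcm-2, leaving out any one of L2 replicate 1, L2 replicate 4 and L4 replicate 2 gave a log2 fold change of 0.89 to 1.15 (adjusted p = 0.05 to 0.107). For cdk-4, leaving out L4 replicate 4 gave a log2 fold change of -2.37. Of 72 histone genes in the table only 35 passed the filter. Of these 11 rose and 5 fell (9 and 6 without L4 replicate 4). The count lower was 9 under RLE scaling and with DESeq2, 11 with the 16 input libraries, 16 with the 7 libraries alone and 0 under scaling on the neuronal set, where their median of -0.39 became 0.10. Among them his-73 rose 3.94-fold (adjusted p = 0.000166). Histone genes are short near-copies, so single members are uncertain.

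**Figure D2:**
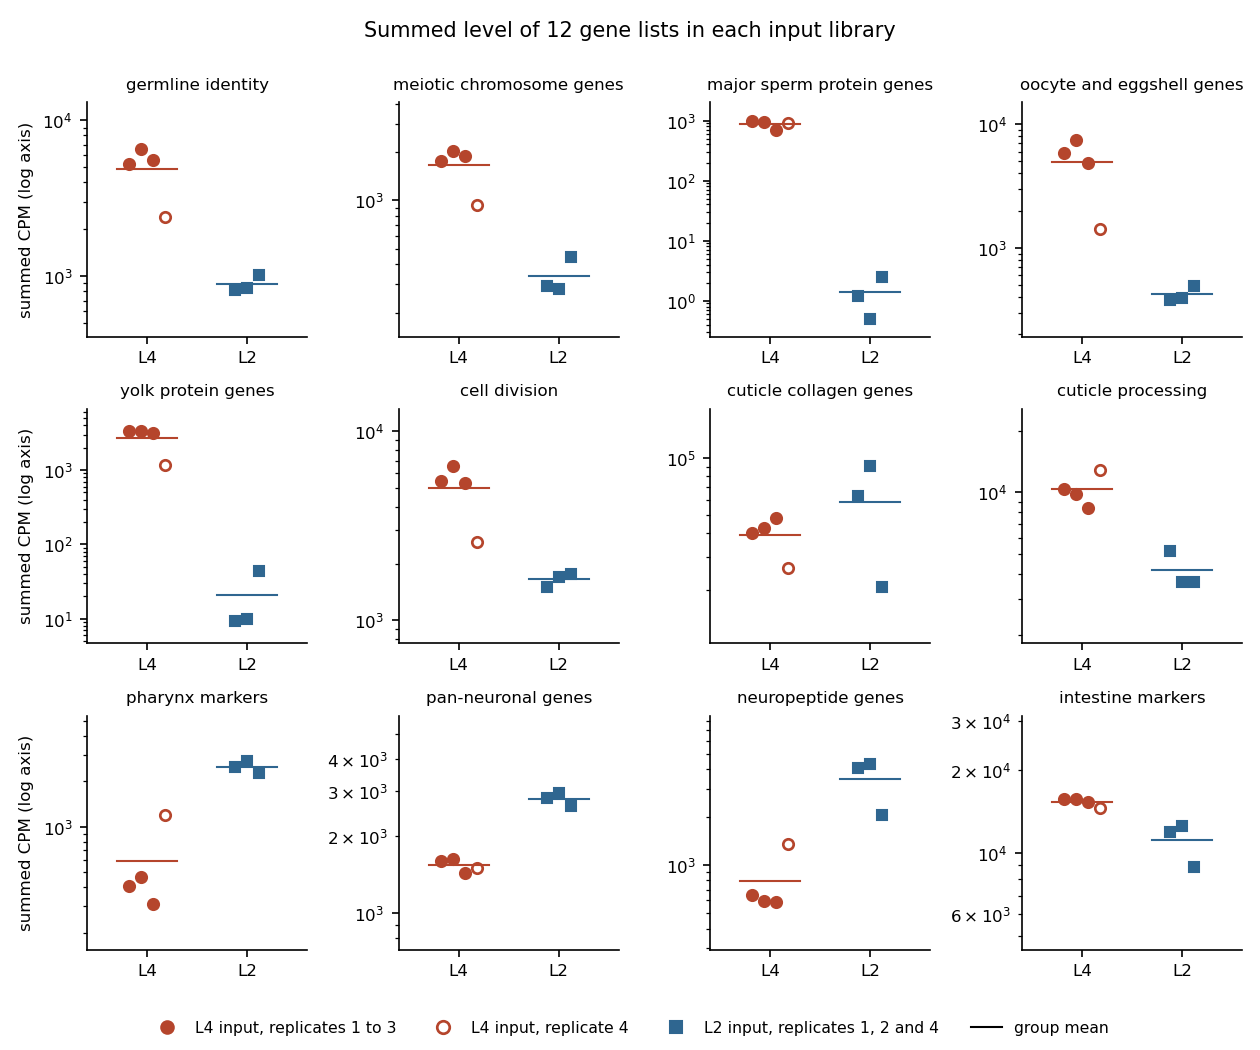
Summed CPM of 12 gene lists in the 4 L4 and 3 L2 input libraries, on a log axis per list, with bars at group means. The germline, meiotic, major sperm protein, oocyte, yolk, cell division, cuticle processing and intestine sums are higher in every L4 library than in every L2 library, the pharynx, pan-neuronal and neuropeptide sums are lower, the collagen sums overlap, and L4 replicate 4 (open circles) stands nearest to L2 for the germline, oocyte, yolk, pharynx and neuropeptide sums.

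Single cuticle collagens differed widely between the stages, while in the fit reported the share of the family called was near or below that of all genes. Nematodes make a new cuticle at each molt, from collagens expressed in timed sets by the epidermis. Of 171 collagen genes tested, 39 rose (22.8%, against 23.7% of all genes) and 29 fell (16.96%, against 20.7%), or 46 and 33 without L4 replicate 4, with a median of 0.68. Under scaling on the neuronal set 19 were lower. The share higher was above that of all genes without L4 replicate 4 (24.7% of all genes) and with DESeq2 (46 of 171, against 22%). It was also above with the 16 input libraries (44 of 161, against 25.7%) and the 7 libraries alone (48 of 152, against 27.1%). Summed collagen levels overlapped, at 40091, 42368, 48095 and 26036 CPM in the L4 libraries and 63115, 90992 and 20839 CPM in the L2 libraries, since L2 replicate 4 was below all L4 libraries. The collagens bli-1 and bli-2, which build the struts between the layers of the adult cuticle, were almost absent at L2. They had 1163, 1013, 846 and 851 CPM and 308, 297, 360.1 and 170.1 CPM in the L4 libraries, against 0.107, 0.167 and 0.531 CPM and 0.25, 0.0667 and 0.193 CPM in the L2 libraries. Their log2 fold changes were 11.87 ± 1.42 (adjusted p = 3.19e-07) and 10.68 ± 1.19 (adjusted p = 8.99e-08). Both were again low in adult input libraries, at 8.92 ± 7.29 CPM and 1.75 ± 1.74 CPM (SD), a comparison that was not tested.

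Other collagens followed other patterns. The genes col-138 and col-175 had 1671, 1672, 2265 and 118 CPM and 895, 1063, 1172 and 106 CPM in the L4 libraries and at most 0.567 CPM in any L2 library, and L4 replicate 4 was far below the other L4 libraries for both (log2 fold changes 12.07 ± 1.95, adjusted p = 1.67e-05, and 11.96 ± 1.90, adjusted p = 1.32e-05). In the opposite direction, col-74 had 0.157, 0.164, 0.214 and 0 CPM at L4 and 53.6, 34.8 and 17.96 CPM at L2 (284-fold lower, adjusted p = 1.12e-05). Likewise col-165 had 0.394, 0.082, 0.427 and 0 CPM at L4 and 64.1, 42.2 and 21.4 CPM at L2 (205-fold lower, adjusted p = 1.65e-05). Of the collagens needed at several molts, sqt-3, which shapes the body, rose 9.23-fold (adjusted p = 0.00787). For rol-6 (344, 309, 345 and 118 CPM at L4 and 71.1, 150.4 and 21.9 CPM at L2) and dpy-7 (29.4, 22.6, 23.9 and 179.6 CPM at L4 and 56.3, 29.2 and 22.01 CPM at L2) the stages overlapped, with adjusted p = 0.123 and 0.499. The direction of dpy-7 rested on L4 replicate 4, with a log2 fold change of 0.84 over all libraries and -0.50 without it. For bli-2, leaving out L2 replicate 2 gave a log2 fold change of 10.04. For col-138, leaving out L2 replicate 1 gave a log2 fold change of 11.32. For col-175, leaving out L2 replicate 4 gave a log2 fold change of 11.18. For col-74, leaving out L2 replicate 4 gave a log2 fold change of -8.76. For col-165, leaving out L2 replicate 4 gave a log2 fold change of -8.29, L4 replicate 1 gave -8.47 and L4 replicate 3 gave -8.37. For sqt-3, leaving out L2 replicate 4 gave a log2 fold change of 2.65 (adjusted p = 0.0656).

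Of 26 cuticle processing and molting genes, 12 rose and 2 fell with and without L4 replicate 4, with a median of 0.99. The molting gene mlt-10 had 792, 743, 669 and 131 CPM at L4 and 18.3, 34.7 and 12.9 CPM at L2 (log2 fold change 4.73 ± 0.82, adjusted p = 3.51e-05). The metalloprotease gene nas-37, which opens the old cuticle at ecdysis, had 105, 89.9, 88.8 and 124 CPM at L4 and 13.8, 9.40 and 7.34 CPM at L2 (log2 fold change 3.32 ± 0.66, adjusted p = 0.000168). The peroxidase gene mlt-7, which cross-links collagens, was 2.80-fold lower (adjusted p = 0.000185). Hedgehog-related genes, a nematode-expanded family secreted largely by the epidermis, had 15 of 51 members higher (29.4%) and 9 lower (17.6%), or 14 and 11 without L4 replicate 4, with a median of 1.05. The warthog genes wrt-4 and wrt-6 were 67.3-fold higher (adjusted p = 0.001) and 37.9-fold higher (adjusted p = 7.17e-05). The groundhog gene grd-13 had 0.0787, 0.41, 0.321 and 41.2 CPM at L4 and 449, 478 and 214 CPM at L2, a log2 fold change of -5.15 ± 1.21 (adjusted p = 0.00102). In wrt-4 L4 replicate 4 lay at 33.9 CPM, against 391 to 461 CPM in the other L4 libraries. For wrt-4, leaving out L2 replicate 4 gave a log2 fold change of 5.36. For grd-13, leaving out L4 replicate 4 gave a log2 fold change of -10.46.

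**Figure D3:**
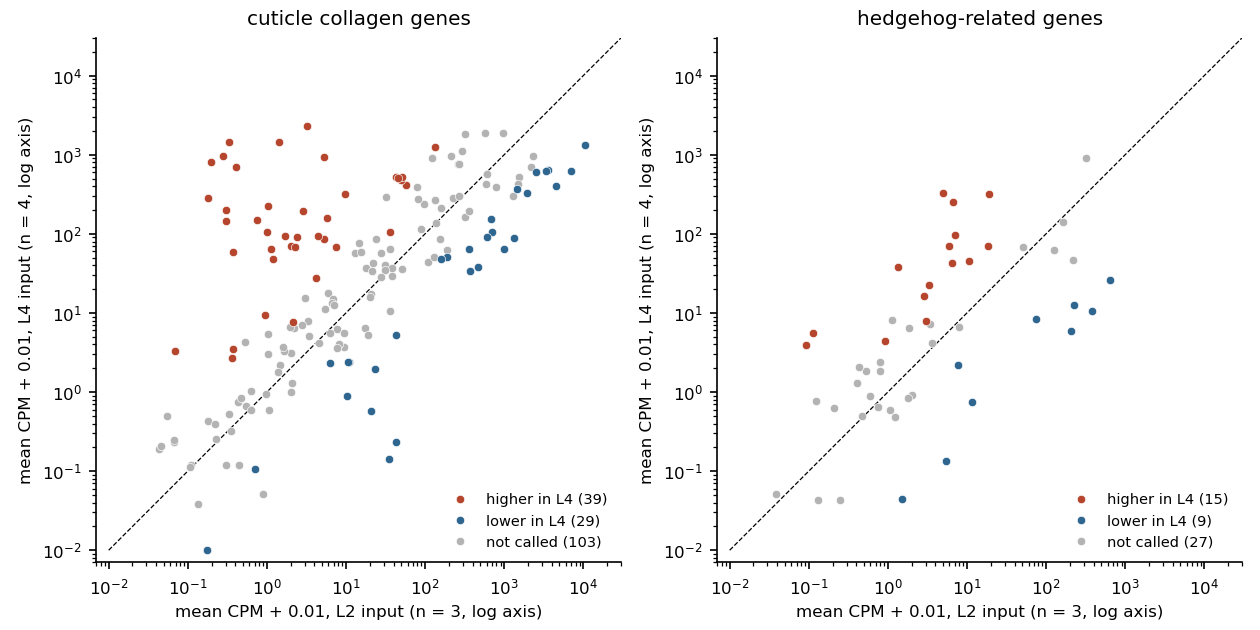
Mean CPM of 171 cuticle collagen genes (left) and 51 hedgehog-related genes (right) in L4 input (vertical, n = 4) against L2 input (horizontal, n = 3), on log axes with a small constant added, and with the dashed line at equal levels. Genes called higher in L4 (39 collagens and 15 hedgehog-related genes) rise from low L2 levels, and genes called lower (29 and 9) span low and high L2 levels.

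Regulators of the epidermis itself fell. Of 11 seam and hypodermal regulators, 0 rose and 8 fell (0 and 9 without L4 replicate 4), with a median of -1.55. The engrailed homolog ceh-16, which acts in the seam cells, had 0.236, 0.082, 0.107 and 0.448 CPM at L4 and 8.73, 10.97 and 7.24 CPM at L2 (log2 fold change -5.23 ± 0.54, adjusted p = 2.31e-08). The CBF-beta homolog bro-1, which promotes seam cell division, was 10.3-fold lower (adjusted p = 0.0053). The 27 vulva and uterus genes had 8 higher and 5 lower members (7 and 8 without L4 replicate 4, 5 higher under RLE scaling or with the 7 libraries alone, and 2 lower under scaling on the neuronal set) and a median of -0.14 that became 0.34 under scaling on the neuronal set. Glycosaminoglycan synthesis genes of the sqv group, which expand the vulval lumen but act in other tissues too, included sqv-5, the chondroitin synthase gene (145, 156, 104 and 58.2 CPM at L4 and 29.3, 36.4 and 46.8 CPM at L2, adjusted p = 9.04e-05). The LIM homeobox gene lin-11 had overlapping levels of 10.6, 8.04, 9.19 and 17.8 CPM at L4 and 6.29, 8.57 and 3.96 CPM at L2 (log2 fold change 0.86 ± 0.35, adjusted p = 0.0435), and its call did not pass with DESeq2, RLE scaling, no filter or the 16 or 7 input libraries alone. The anchor cell regulator nhr-67 and the Hox gene lin-39, which prepares vulval precursors, fell 6.52-fold (adjusted p = 1.62e-05) and 2.96-fold (adjusted p = 0.000592). The vulval genes used as reporters did not pass, the FGF gene egl-17 at 0.11 ± 0.67 (adjusted p = 0.916) and the homeobox gene cog-1 at -0.05 ± 0.41 (adjusted p = 0.941), and the sign of each turned under at least 1 alternative. For ceh-16, leaving out L4 replicate 4 gave a log2 fold change of -5.90. For bro-1, leaving out L4 replicate 4 gave a log2 fold change of -5.46. For lin-11, leaving out any one of L2 replicate 1, L2 replicate 4, L4 replicate 1, L4 replicate 2, L4 replicate 3 and L4 replicate 4 gave a log2 fold change of 0.36 to 0.83 (adjusted p = 0.0589 to 0.433).

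Among 17 somatic gonad genes, 5 rose and 4 fell (6 and 4 without L4 replicate 4), with a median of 0.00. The gonadal sheath innexin inx-8, which couples sheath and germ cells, had 19.3, 25.6, 23.3 and 11.1 CPM at L4 and 0.644, 0.40 and 0.579 CPM at L2 (log2 fold change 5.18 ± 0.63, adjusted p = 2.51e-07). The forkhead gene fkh-6 of the spermatheca and sheath had 5.04, 6.81, 5.02 and 8.402 CPM at L4 and 0.322, 0.100 and 0.0965 CPM at L2 (log2 fold change 5.13 ± 1.09, adjusted p = 0.000294). Both were apart in all libraries, as the rule that named them required. The inositol phosphatase gene ipp-5 of the spermatheca fell 2.28-fold (adjusted p = 0.000285) and the POU gene ceh-18 of the sheath 1.75-fold (adjusted p = 0.00616). The sheath marker lim-7 overlapped, at 15.5, 15.4, 14.7 and 8.29 CPM in L4 and 11.1, 10.6 and 9.99 CPM in L2 (adjusted p = 0.358). For fkh-6, leaving out L2 replicate 1 gave a log2 fold change of 5.76.

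Of 20 intestine markers, 4 rose (20%) and 1 fell (5%), both shares below those of all genes, with 4 and 2 without L4 replicate 4 and a median of 0.27. With the 7 libraries alone 6 of 20 rose, a share above the 27.1% of all genes, and 5 fell (25%, against 26.8%). Their sum was 15660.2, 15685, 15299 and 14572 CPM in the L4 libraries, against 11903, 12504 and 8897 CPM in the L2 libraries, so every L4 library was above every L2 library. The gut GATA factor gene elt-2 (log2 fold change -0.85 ± 0.41, adjusted p = 0.0874) and the gut esterase gene ges-1 (0.78 ± 0.38, adjusted p = 0.09) did not pass. Under other settings elt-2 was called lower, with RLE scaling (adjusted p = 0.0433), DESeq2 (0.0389), the 16 input libraries (0.0135) and the 7 libraries alone (0.00372), and ges-1 was called higher with the 7 libraries alone (0.0348). The desaturase gene fat-7 rose 16.6-fold (adjusted p = 0.00287). The metallothionein gene mtl-1 was the member that fell, at 0.945, 0.328, 0.321 and 1.40 CPM in L4 and 47.8, 71.5 and 2.32 CPM in L2 (51.6-fold lower, adjusted p = 0.000134), with L2 replicate 4 far below the other L2 libraries. Of 25 body wall muscle markers, 0 rose and 6 fell (24.0%, against 20.7% of all genes), with a median of -0.45. The count lower was 11 under RLE scaling and with DESeq2 (median -0.59 in both), 12 with the 16 input libraries and with the 7 libraries alone, 3 without L4 replicate 4, and 1 under scaling on the neuronal set, where the median was 0.03. The myosin genes unc-54 (5466, 8936, 7778 and 3883 CPM at L4 and 4730.4, 6303 and 3827 CPM at L2, adjusted p = 0.427) and myo-3 (log2 fold change -0.67 ± 0.37, adjusted p = 0.14) did not pass, although myo-3 was called lower with the 16 input libraries (adjusted p = 0.0284) and with the 7 libraries alone (0.0304). The MyoD homolog hlh-1 fell 4.60-fold (adjusted p = 2.22e-05). For elt-2, leaving out L2 replicate 4 gave a log2 fold change of -1.24 (adjusted p = 0.0409). For mtl-1, leaving out L2 replicate 4 gave a log2 fold change of -6.50. For myo-3, leaving out L2 replicate 4 gave a log2 fold change of -1.12 (adjusted p = 0.0428). For hlh-1, leaving out L4 replicate 4 gave a log2 fold change of -2.81.

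Most pharynx markers fell. Of 15 pharynx markers, 0 rose and 12 fell with and without L4 replicate 4 (6 fell under scaling on the neuronal set), with a median of -2.31. Their sum was 409, 464, 308 and 1200.2 CPM in the L4 libraries, against 2493, 2721 and 2263 CPM in the L2 libraries, so L4 replicate 4 lay between the other L4 libraries and L2. The pharyngeal myosin gene myo-2 had 127, 152, 90.2 and 401 CPM at L4 and 770.5, 797 and 859 CPM at L2 (log2 fold change -2.07 ± 0.71, adjusted p = 0.0185), and the troponin gene tni-4 was 6.79-fold lower (adjusted p = 0.00225). The largest fall of the list was that of phat-5, a gene of the pharyngeal gland, at 0.0787, 0.41, 0 and 0.504 CPM in L4 and 27.4, 31.9 and 21.9 CPM in L2 (98.7-fold lower, adjusted p = 1.27e-05). The abu genes, which form part of the pharyngeal cuticle, had 3 of 12 higher and 5 lower (3 and 6 without L4 replicate 4, 2 lower under scaling on the neuronal set and 8 lower with the 7 libraries alone) and a median of -2.94. Of these abu-8 had 4.02, 5.74, 4.81 and 38.8 CPM at L4 and 369, 637 and 83.5 CPM at L2 (log2 fold change -4.75 ± 1.44, adjusted p = 0.00815). For myo-2, leaving out L4 replicate 3 gave a log2 fold change of -1.96 (adjusted p = 0.0534) and L4 replicate 4 gave -2.72. For tni-4, leaving out L4 replicate 4 gave a log2 fold change of -3.65. For phat-5, leaving out L4 replicate 4 gave a log2 fold change of -7.25. For abu-8, leaving out L2 replicate 4 gave a log2 fold change of -5.43 and L4 replicate 4 gave -6.22.

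Most glia and excretory markers fell. Of 13 glia markers, 9 fell and 1 rose (10 and 1 without L4 replicate 4), with a median of -1.52. The Prospero homolog pros-1 and the amphid sheath secreted protein gene vap-1 fell 4.17-fold (adjusted p = 1.95e-05) and 3.86-fold (adjusted p = 0.000616). The member that rose was the Patched-related gene daf-6, which shapes the channel of sensory organs and also other tubes, at 26.9, 29.4, 20.1 and 19.9 CPM in L4 and 4.65, 5.33 and 2.75 CPM in L2 (log2 fold change 2.50 ± 0.36, adjusted p = 2.68e-06). Of 8 excretory cell markers, 6 fell and 1 rose with and without L4 replicate 4 (3 fell under scaling on the neuronal set), with a median of -1.12. The POU gene ceh-6 fell 5.42-fold (adjusted p = 8.88e-06) and the aquaporin gene aqp-8 4.77-fold (adjusted p = 0.00389). The chloride channel gene clh-3 rose 1.88-fold (adjusted p = 0.0225), a call that did not pass with DESeq2, RLE scaling or no filter. For aqp-8, leaving out L4 replicate 4 gave a log2 fold change of -3.64. For clh-3, leaving out any one of L2 replicate 1, L2 replicate 2, L2 replicate 4, L4 replicate 1, L4 replicate 2 and L4 replicate 3 gave a log2 fold change of 0.51 to 0.97 (adjusted p = 0.0584 to 0.338).

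Neuronal genes were lower in the L4 input. Of 26 pan-neuronal genes, 0 rose and 16 fell (0 and 13 without L4 replicate 4, and 10 fell under scaling on the neuronal set), with a median of -0.94, and their sum was 1604, 1628, 1439.9 and 1507 CPM in the L4 libraries, against 2809, 2951 and 2617 CPM in the L2 libraries. The synaptic vesicle gene rab-3 had 11.02, 10.4, 11.9 and 15.7 CPM at L4 and 62.6, 85.4 and 48.7 CPM at L2 (log2 fold change -2.42 ± 0.41, adjusted p = 2.36e-05). The neuronal exchange factor gene rgef-1 had 6.06, 7.63, 8.87 and 8.12 CPM at L4 and 16.8, 13.97 and 29.2 CPM at L2 (log2 fold change -1.38 ± 0.38, adjusted p = 0.00373). The stages did not overlap for either gene. The complexin gene cpx-1 and the synaptotagmin gene snt-1 were 9.83-fold lower (adjusted p = 5.88e-06) and 6.07-fold lower (adjusted p = 3.34e-06). Counts from genes of the authors' neuronal set made up 11.2% ± 0.534 of each L4 input library (SD, n = 4) and 15.003% ± 1.58 of each L2 input library (SD, n = 3).

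Of 20 neurotransmitter genes, 13 fell and 3 rose with and without L4 replicate 4, with a median of -1.31. The vesicular acetylcholine transporter gene unc-17 fell 2.93-fold (adjusted p = 0.000607) and eat-4, which loads glutamate into vesicles, 2.87-fold (adjusted p = 0.00109). GABA genes fell too. The synthesis enzyme gene unc-25 had 13.6, 15.3, 11.1 and 17.3 CPM at L4 and 92.3, 112 and 96.8 CPM at L2 (log2 fold change -2.81 ± 0.36, adjusted p = 4.09e-07). The vesicular transporter gene unc-47 was 12.99-fold lower (adjusted p = 2.97e-07) and its sorting partner unc-46 17.1-fold lower (adjusted p = 1.02e-06). The tyrosine decarboxylase gene tdc-1, which makes tyramine in a few neurons and in gonadal sheath cells, rose, at 55.8, 57.2, 39.97 and 10.9 CPM in L4 and 6.94, 9.90 and 10.4 CPM in L2 (log2 fold change 2.17 ± 0.42, adjusted p = 0.000112). In tdc-1 L4 replicate 4 was just above the highest L2 library.

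Most neuropeptide genes fell, 88 of 120 with 3 higher (96 and 2 without L4 replicate 4), with a median of -1.99, or -1.97 with members at 0 in one stage at their bounds. Their sum was 644, 593, 587 and 1359 CPM in the L4 libraries, against 4066, 4329 and 2059.9 CPM in the L2 libraries. The FMRFamide-related gene flp-1 had 12.2, 11.3, 6.84 and 27.95 CPM at L4 and 82.9, 74.1 and 99.8 CPM at L2 (log2 fold change -2.55 ± 0.34, adjusted p = 7.45e-07). The largest falls by the naming rule were not in neuronal peptides but in nlp-29 and nlp-27, antimicrobial peptide genes of the epidermis. They had 1.97, 1.72, 2.14 and 24.4 CPM and 0.709, 1.39, 1.71 and 36.7 CPM in the L4 libraries, against 155, 296 and 60.1 CPM and 218, 185 and 52.5 CPM in the L2 libraries (adjusted p = 2.66e-05 and 0.00234). The insulin-like gene ins-37 rose 40.1-fold (adjusted p = 0.000138). For cpx-1, leaving out L4 replicate 4 gave a log2 fold change of -4.10. For nlp-29, leaving out L2 replicate 4 gave a log2 fold change of -5.08 and L4 replicate 4 gave -6.46. For nlp-27, leaving out L2 replicate 4 gave a log2 fold change of -4.48 and L4 replicate 4 gave -6.92.

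Most ciliary transport genes fell, while the share of chemoreceptor genes called lower was below that of all genes in the fit reported and above it in smaller sets of libraries. Of 868 chemoreceptor-type receptor genes that passed the filter, out of 1330 in the table, 17 rose (1.96%) and 138 fell (15.9%, against 20.7% of all genes), or 20 and 154 of 878 without L4 replicate 4. Fewer passed the filter in smaller sets of libraries, with 72 of 297 lower in the 16 input libraries (24.2%, against 23.6% of all genes) and 23 of 68 lower in the 7 libraries alone (33.8%, against 26.8%). Over the 868 genes the median was -1.21, or -0.83 with members at 0 in one stage at their bounds (79 had no count at L2). The receptor gene srd-7, with no count at L2 and 5.28, 2.05, 2.35 and 1.01 CPM in the L4 libraries, was at least 66.4-fold higher. Guanylyl cyclases, the transduction enzymes of several sensory neurons, fell in 20 of 34 cases and rose in 1 (15 and 1 without L4 replicate 4, and 9 fell under scaling on the neuronal set), with a median of -1.21. Of 36 ciliary transport genes 27 fell and 1 rose (24 and 1 without L4 replicate 4), with a median of -1.47, among them dyf-11 (0.63, 1.15, 1.07 and 1.96 CPM at L4 and 7.98, 8.399 and 3.72 CPM at L2, adjusted p = 0.000111).

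Transcription factor families were also lower. Of 6 Hox genes, which set position along the body axis, 0 rose and 5 fell (0 and 6 without L4 replicate 4), with a median of -1.56. The midbody Hox gene mab-5 had 2.60, 2.62, 1.496 and 4.59 CPM at L4 and 15.5, 13.3 and 19.1 CPM at L2 (log2 fold change -2.48 ± 0.41, adjusted p = 1.63e-05), and the tail Hox gene egl-5 was 4.005-fold lower (adjusted p = 0.000261). Of 241 nuclear hormone receptor genes, an expanded family in nematodes, 5 rose and 100 fell (6 and 115 without L4 replicate 4, and 46 fell under scaling on the neuronal set), with a median of -0.92, or -0.86 with members at 0 in one stage at their bounds. In this family nhr-150 was 20.1-fold lower (adjusted p = 0.000189) and nhr-76 was 4.66-fold higher (adjusted p = 8.18e-05). For nhr-150 the L4 libraries had 0, 0, 0 and 0.504 CPM, so L4 replicate 4 alone held its L4 counts, and without that library the fitted log2 fold change was -9.06, a size that depends on the prior count of the model. Of 122 long intergenic non-coding RNA genes, 10 rose (8.20%) and 19 fell (15.6%), or 9 and 33 without L4 replicate 4 and 12 lower under scaling on the neuronal set, with a median of -0.91, or -0.85 with members at 0 in one stage at their bounds.

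Few ribosomal protein genes were called. Of 81 ribosomal protein genes 3 rose and 3 fell (5 and 10 without L4 replicate 4, with 8 lower under RLE scaling and with DESeq2 and 19 lower with the 7 libraries alone), and the median of -0.29 became 0.17 under scaling on the neuronal set. The germline-enriched paralog rpl-11.1 was among those that rose, at 237, 277, 366 and 234 CPM in L4 and 70.7, 58.4 and 97.7 CPM in L2 (adjusted p = 0.00163). C-type lectin genes, many of them linked to gut immunity, had 26 of 158 higher (16.5%) and 22 lower (13.9%), both shares below those of all genes (29 and 30 of 160 without L4 replicate 4), and a median of 0.07 that became -0.01 under RLE scaling. With the 7 libraries alone 34 of 119 lectin genes were higher, a share above the 27.1% of all genes. In that fit 31 were lower (26.1%, against 26.8%). The lectin gene clec-123, with no count at L2 and 65.2, 57.8, 44.8 and 24.98 CPM in the L4 libraries, was at least 1207-fold higher, and clec-266 was 35.4-fold lower (adjusted p = 0.00129). Of 17 heat shock genes 1 rose and 7 fell (2 and 6 without L4 replicate 4, and 4 fell under scaling on the neuronal set), and their median of -0.30 became 0.13 under scaling on the neuronal set. The small heat shock gene hsp-16.2 had 0.945, 0.328, 0.855 and 0.728 CPM at L4 and 22.9, 10.8 and 2.61 CPM at L2 (log2 fold change -4.08 ± 1.10, adjusted p = 0.00325), and L2 replicate 4 was the lowest L2 library. The 2 ribosomal RNA genes tested, with 0 called, summed to 4202, 3432, 5239.6 and 529 CPM in the L4 libraries and 1305, 1575 and 1074 CPM in the L2 libraries, and L4 replicate 4 was below all others. For clec-266, leaving out L2 replicate 2 gave a log2 fold change of -5.78 and L4 replicate 2 gave -5.89. For hsp-16.2, leaving out L2 replicate 1 gave a log2 fold change of -3.46 and L2 replicate 4 gave -4.83.

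**Figure D4:**
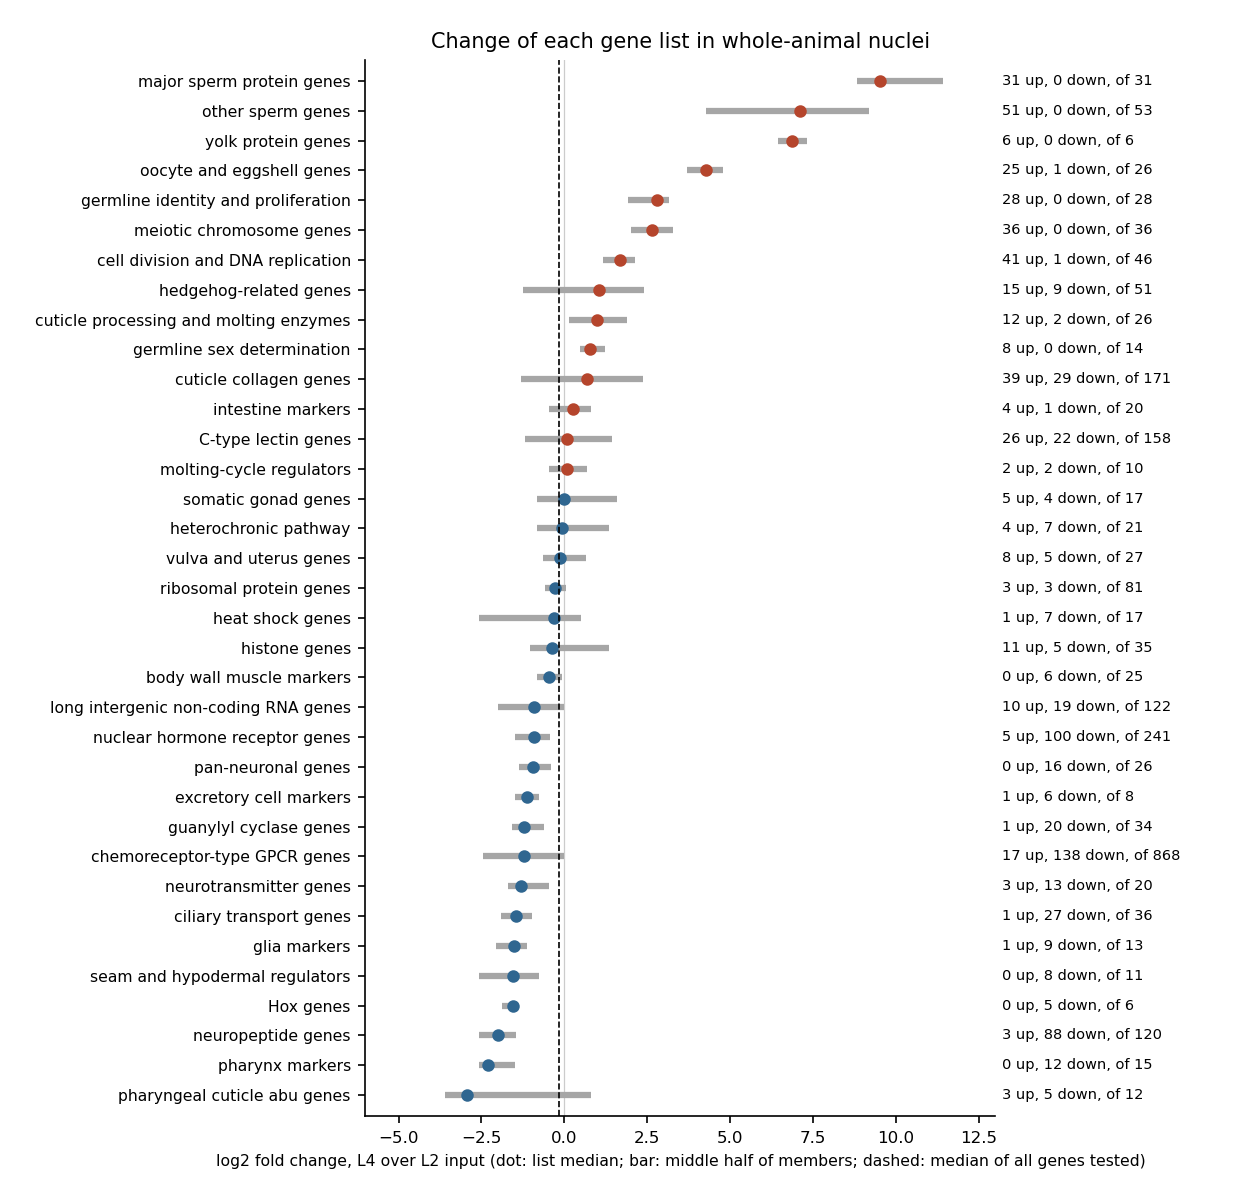
Median log2 fold change (L4 over L2 input, dots) and middle range of members (bars) for the gene lists with at least 6 genes tested, with the counts of genes called higher and lower at the right and the median of all genes tested (-0.15) as a dashed line. The sperm, yolk, oocyte, germline identity and meiotic lists have medians of 2.66 or more, and the pharyngeal, neuropeptide, Hox, epidermal, glial and ciliary lists have medians of -1.47 or less.

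Over all genes, the largest rises by the naming rule were in genes with no count at L2. F17E9.5 had 156, 143, 108 and 93.1 CPM in the L4 libraries and was at least 3221-fold higher, and R09E10.6 had 117, 126, 60.3 and 42.4 CPM and was at least 2182-fold higher. The gene dao-4, which had 114, 104, 129.9 and 12.5 CPM at L4, was at least 2096-fold higher, and its L4 replicate 4 was far below the others. W03D8.9, ZK938.1 and Y57G7A.6, also without a count at L2, were at least 1421-fold higher, at least 1368-fold higher and at least 1350.1-fold higher. Y51H7C.1, with 1 count at L2, had a ratio of 16349 with a 95% counting interval of 2934 to 645805. For each of these genes L4 replicate 4 was the lowest L4 library. Beside the collagens col-74 and col-165 and the gland gene phat-5, the largest falls were in EGAP4.1 (0.0787, 0.082, 0.214 and 1.57 CPM at L4 and 49.6, 56.5 and 33.8 CPM at L2, adjusted p = 3.74e-07) and F54B8.4 (0.394, 0.082, 0.107 and 0.56 CPM at L4 and 35.0, 24.9 and 12.9 CPM at L2, adjusted p = 1.58e-06). The genes C50F7.5, pqn-71 and W08E12.6 fell by 56.6-fold, 74.4-fold and 41.3-fold (adjusted p = 1.33e-05, 0.00139 and 1.97e-05). In all of these L4 replicate 4 was the highest L4 library and L2 replicate 4 the lowest L2 library. For EGAP4.1, leaving out L4 replicate 4 gave a log2 fold change of -8.55. For C50F7.5, leaving out L2 replicate 4 gave a log2 fold change of -6.51 and L4 replicate 4 gave -6.52. For pqn-71, leaving out L2 replicate 4 gave a log2 fold change of -6.86 and L4 replicate 4 gave -8.74. For W08E12.6, leaving out L2 replicate 2 gave a log2 fold change of -4.77, L2 replicate 4 gave -6.09 and L4 replicate 4 gave -6.41.

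The direction of change differed by chromosome. On chromosome X, which carries few genes with germline expression, 8.88% of 3187 genes tested were higher and 30.0% lower, and on chromosome V 18.02% were higher and 24.3% lower. On chromosome I 34.8% were higher and 15.7% lower, and chromosomes II, III and IV had between 24.6% and 30.5% higher. Chromosome X had the smallest share of higher genes under RLE scaling (7.88%), under scaling on the neuronal set (12.3%) and without L4 replicate 4 (9.27%).

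Because neuronal nuclei were pulled down from the same stages, the change in the input could be set against the change in the neuronal IP. Genes of the authors' neuronal set made up 33.4% ± 9.22 of the counts of L4 neuronal IP libraries (SD, n = 6). In L2 neuronal IP libraries their share was 42.5% ± 8.61 (SD, n = 5). How much RNA of other tissues the neuronal IP carried was not tested, so its changes are not those of neurons alone. The difference of the 2 log2 changes, input minus neuronal IP, was positive and called for 811 genes (3.85% of 21040) and negative for 257 (1.22%). Inputs and neuronal IPs of the same number deviated together, although L4 input replicate 2 matched L4 neuronal IP replicate 1 more closely. With the stage and number as a replicate block 1761 differences were positive (9.29%) and 2517 negative (13.3%) of 18960. The split turned under RLE scaling (214 positive and 326 negative), under scaling on the neuronal set (197 and 305) and with DESeq2 (573 and 868). Without L4 replicate 4 there were 1730 positive and 1393 negative differences. Leaving out each of the other 6 input libraries gave 107 to 1381 in all, with more negative than positive each time. Without L2 replicate 1, 2 or 4 there were 51, 41 and 218 positive and 85, 66 and 1163 negative. Without L4 replicate 1, 2 or 3 there were 50, 63 and 100 positive and 57, 72 and 103 negative. The median change of germline identity genes was 2.80 in the input and 2.42 in the neuronal IP, with 1 of 28 called for the difference, but with the replicate block 2 differences were positive and 9 negative. For oocyte genes the medians were 4.27 and 3.67, with 0 positive and 1 negative of 26 called, or 2 and 5 with the block. The sign turned with the block for several named genes. For glh-1 the difference of 0.10 (adjusted p = 0.923) became -0.85 (adjusted p = 0.0437), and for oma-1 0.90 (adjusted p = 0.548) became -1.02 (adjusted p = 0.0503). It also turned for glp-1 (0.57 to -0.60) and gld-1 (0.63 to -0.33), neither called with the block. Outside these lists it turned for cyb-1 (0.02 to -1.04), mlt-10 (0.45 to -1.01) and fat-7 (0.03 to -1.92), all called with the block. The median of the major sperm protein genes was 9.51 in the input (9.10 with bounds) and 6.81 in the neuronal IP, but 0 of 31 were called for the difference, and 11 were called positive with the block. That of yolk genes was 6.87 and 3.89, with 0 of 6 called, or 5 positive with the block. The neuropeptide median was -1.99 in the input and -0.24 in the neuronal IP, with 15 of 120 neuropeptide genes called for the difference and all of these negative (23 of 115 with the block). With the block other lists had larger negative shares, among them intestine markers (18 of 20), histones (23 of 35) and cuticle collagens (86 of 164). Hedgehog-related genes (25 of 48), cuticle processing genes (13 of 26) and ribosomal protein genes (35 of 81) did too. Without the block these lists had 1, 0, 4, 0, 0 and 0 negative calls.

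Single genes show this contrast. The CCK-like neuropeptide gene nlp-12 had 1.57, 0.902, 2.78 and 8.91 CPM in L4 input and 65.8, 71.8 and 6.37 CPM in L2 input, but 134 ± 91.5 CPM in L4 neuronal IP and 118 ± 95.4 CPM in L2 neuronal IP (SD, n = 6 and 5). In the input L4 replicate 4 reached the L2 range for this gene. The difference of its changes was -3.92 ± 1.16 (adjusted p = 0.0447), and with the replicate block its adjusted p was 0.12. The antimicrobial peptide gene nlp-33 differed by -3.58 ± 0.78 (adjusted p = 0.0116) and tag-209 by -3.55 ± 0.88 (adjusted p = 0.0197). The GABA genes unc-25, unc-47 and unc-46 differed by -1.60, -2.46 and -3.17 (adjusted p = 0.0311, 0.0126 and 0.00846), each falling further in the input, although the difference of unc-25 did not pass with the replicate block (adjusted p = 0.114). The amine gene tdc-1 went the other way by 2.70 ± 0.52 (adjusted p = 0.00595), with 47.4 ± 14.6 CPM in L4 neuronal IP and 68.3 ± 32.9 CPM in L2 neuronal IP. Of 53 sperm genes other than major sperm protein genes, 4 were called positive and 0 negative for the difference. The sperm genes fer-1 and spe-9 differed by 3.10 for fer-1 (adjusted p = 0.0121) and 3.33 for spe-9 (adjusted p = 0.0144), while the difference for gsp-3 (2.29, adjusted p = 0.478) did not pass.

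The largest positive differences by the naming rule were in genes with 0 or 1 count over all L2 input libraries, where the fitted size depends on the prior count of the model. The cation ATPase gene catp-4 had 152, 146, 108 and 64.8 CPM in L4 input and 1 count in L2 input, a ratio of 8889 with a 95% counting interval of 1595 to 351145, and 51.95 ± 27.8 CPM in L4 neuronal IP, against 1.11 ± 0.742 CPM in L2 neuronal IP. The acyl-CoA synthetase family gene acs-10 had 31.6, 30.5, 29.2 and 16.02 CPM in L4 input and 1 count in L2 input, a ratio of 2012 with an interval of 360.4 to 79509.6. F26D2.10, C18H7.4 and F15D3.4, without a count in L2 input, were at least 709.8-fold higher, at least 515-fold higher and at least 477-fold higher in L4 input. In the neuronal IP F26D2.10 had 12.2 ± 5.07 CPM at L4 and 0.729 ± 0.601 CPM at L2. Heterochronic lin-41 fell less in the input than in the neuronal IP, with log2 fold changes of -0.91 and -2.67 and a difference of 1.76 ± 0.44 (adjusted p = 0.0206). The differences for lin-14 (-0.26 ± 0.34, adjusted p = 0.695), hbl-1 (-0.24 ± 0.62, adjusted p = 0.86) and mab-10 (-0.17 ± 0.63, adjusted p = 0.914) did not pass, which does not show that they were equal.

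**Figure D5:**
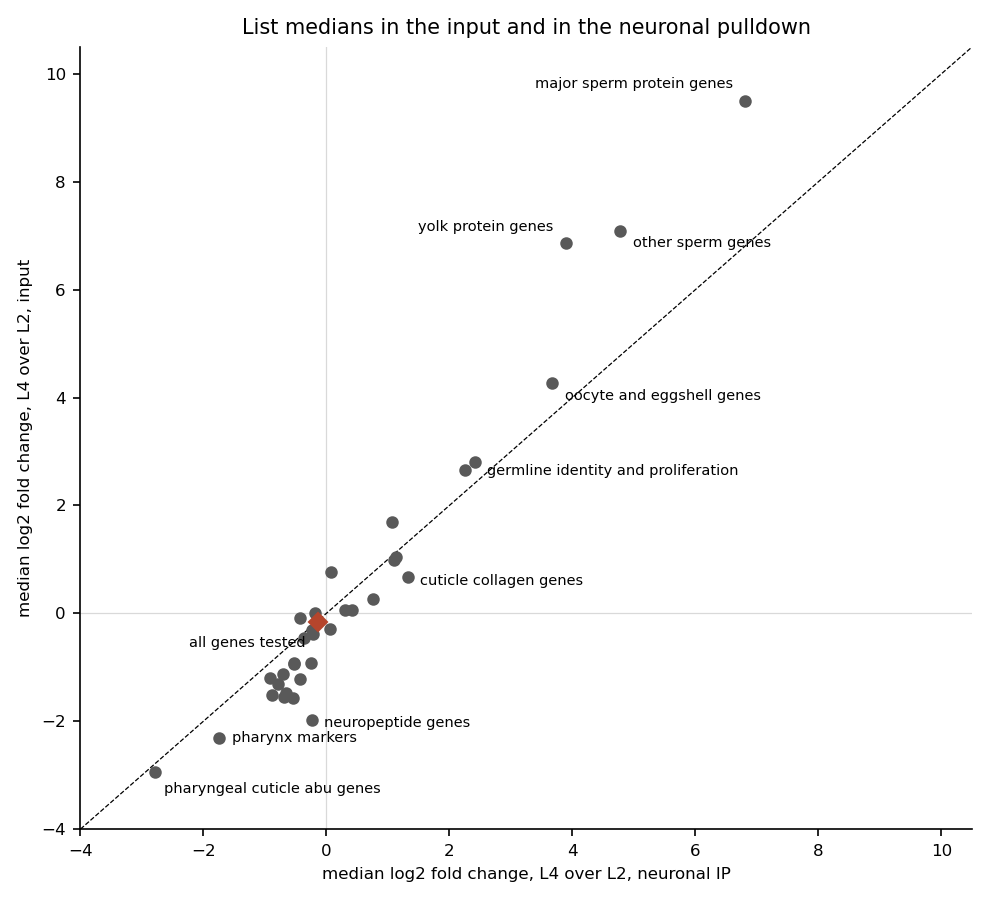
Median log2 fold change (L4 over L2) of each gene list in the input (vertical) against the neuronal IP (horizontal), with equal change on the dashed line and all genes tested as a diamond. The major sperm protein and yolk medians lie above the line (9.51 in the input and 6.81 in the neuronal IP for major sperm protein genes), although 0 of 31 and 0 of 6 genes were called for the difference, and the neuropeptide list lies at -1.99 in the input and -0.24 in the neuronal IP.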

How the data were processed

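RNA of total (input) and pulled-down neuronal nuclei was sequenced from C. elegans larvae and adults. The authors deposited raw counts per gene for each library, and a list of genes they used as a neuronal set (7974 genes here). Per the submitters' processing notes Subread, featureCounts and DESeq2 were used. For tool versions, genome build, strandedness and multiply mapped reads nothing is given in the sources used here. Reads of overlapping genes and near-identical copies cannot be told apart.

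From the deposited counts, 38 control libraries in 8 groups of stage and fraction were fitted together with edgeR 4.0.16 (R 4.3.3), with TMM scaling and a filterByExpr minimum of 10 counts. Stages were compared with the quasi-likelihood test and Benjamini-Hochberg adjusted p-values over all 21040 genes tested, and the difference between fractions with the interaction term. Standard errors are the log2 fold change divided by the square root of F. Of 41897 genes, 7615 had 0 counts in every library. Levels are TMM-scaled CPM and are not compared between genes, since they are not per length. Correlations used log2(CPM + 1). The steps were tested on simulated counts with few changed genes, balanced in direction, equal spread for all genes and no outlying library. That case is simpler than these data, so it does not test the scaling or the error rate here. For genes at 0 in all libraries of one stage the bound of the fold change was set with 3 counts over that group, and intervals and bounds cover counting error only.

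Samples were grouped by their labels. Members and gene lists were chosen with earlier results of these data known. Named genes were 48 fixed marker genes, for each of 36 lists the 2 called members with the highest and the 2 with the lowest fold change (mean of at least 1 CPM, no overlap), the 10 highest and 10 lowest over all genes (at least 10 CPM, no overlap) and the 5 highest and lowest differences from the neuronal IP, leaving out some that repeat a family. Same-numbered input and neuronal IP libraries deviated together from their group means (r = 0.187 to 0.634). L4 input replicate 2 matched L4 neuronal IP replicate 1 better than its own number (r = 0.366), and the other inputs matched their own number best. Pairing by number is therefore likely but not settled. Alternatives were DESeq2 1.42.0, RLE scaling, TMM factors over the neuronal set, no filter, smaller sets of libraries, a replicate block and leaving out each library. Values without L4 replicate 4, list counts under other settings, bounds in list medians and families by prefix were chosen after seeing the data.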

Additional observations from a re-analysis of the deposited data

Results flagged for a closer look

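One L4 library lay far from the other 3, by the ratio of its gap to the group's whole range, for 6 of 36 gene lists and 29 of 135 named genes. By chance about 5% of groups are expected to show such a gap, and the genes are not independent of each other. The lists were yolk protein genes (replicate 4 lowest, 1154 CPM), histone genes (replicate 2 lowest, 4567 CPM), hedgehog-related genes (replicate 4 lowest, 1349.5 CPM), vulva and uterus genes (replicate 3 lowest, 569 CPM), neuropeptide genes (replicate 4 highest, 1359 CPM) and ribosomal protein genes (replicate 3 highest, 94499 CPM). L4 replicate 4 was the outlying library for 27 of the 29 genes. It was the lowest L4 library for syp-4 (41.0 CPM), vit-2 (348 CPM), vit-6 (312 CPM), rol-6 (118 CPM), sqt-3 (344 CPM), wrt-4 (33.9 CPM), wrt-6 (71.4 CPM), lim-7 (8.29 CPM) and acs-10 (16.02 CPM). It was the highest for lin-29 (81.4 CPM), mab-10 (164.9 CPM), nspd-2 (45.8 CPM), dpy-7 (179.6 CPM), grd-13 (41.2 CPM), bro-1 (1.18 CPM), hlh-1 (7.23 CPM), tni-4 (39.8 CPM) and abu-8 (38.8 CPM), and also for aqp-8 (65.4 CPM), unc-47 (2.52 CPM), nlp-29 (24.4 CPM), nlp-27 (36.7 CPM), EGAP4.1 (1.57 CPM), tag-209 (22.8 CPM), pqn-71 (3.30 CPM), W08E12.6 (1.29 CPM) and nhr-150 (0.504 CPM). The remaining genes were lin-42 (replicate 1 highest, 422 CPM) and msp-3 (replicate 3 lowest, 22.5 CPM). What moved these values was not tested.

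The L4 against L2 change differed between the input and the neuronal IP, by the interaction term of edgeR's quasi-likelihood test, for 24 of 135 named genes, of which part were named because they ranked highest in this difference. The differences (log2, input minus neuronal IP) were positive for lin-41 (1.76), fer-1 (3.10), spe-9 (3.33), tdc-1 (2.70), F26D2.10 (8.13), C18H7.4 (7.90), catp-4 (7.09), acs-10 (5.85) and F15D3.4 (5.83). They were negative for cav-1 (-2.71), ceh-16 (-3.73), mtl-1 (-5.11), ceh-6 (-1.66), cpx-1 (-2.33), snt-1 (-1.74) and unc-25 (-1.60), and for unc-47 (-2.46), unc-46 (-3.17), mab-5 (-1.82), egl-5 (-1.76), F54B8.4 (-3.67), nlp-12 (-3.92), nlp-33 (-3.58) and tag-209 (-3.55). With the stage and number as a replicate block the difference did not pass the threshold for ceh-6 (adjusted p = 0.0819), cpx-1 (adjusted p = 0.14), unc-25 (adjusted p = 0.114), egl-5 (adjusted p = 0.0823) and nlp-12 (adjusted p = 0.12). Several positive members had 0 or 1 count over all L2 input libraries, and their fitted differences depend on the prior count of the model.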

How the results depend on the processing

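Leaving out each library in turn gave 7853 to 10107 genes called for L4 against L2 input, 3406 to 5228 of them higher and 4244 to 5138 lower. Lower genes outnumbered higher genes in each of these fits except the one without L4 replicate 4. Counts with DESeq2 (4626 higher, 5203 lower), RLE scaling (4424 and 5046), no filter on low counts (4058 and 4426 of 34282), the 16 input libraries (4638 and 4254) and the 7 input libraries alone (4167 and 4118) stayed within 1.5 times those reported. Scaling on the neuronal set gave 2655 lower genes. L2 and L4 input libraries of the same number did not deviate together (r = -0.216, -0.00477 and -0.207), so they share only a number, and with that number as a replicate block 3722 genes were called, 2360 higher and 1362 lower.

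The count of differences from the neuronal IP (1068, with 811 positive and 257 negative) moved more than that. It was 540 under RLE scaling (214 positive, 326 negative), 502 under scaling on the neuronal set (197 positive, 305 negative), 218 with no filter (82 positive, 136 negative), 654 with the L2 and L4 libraries alone (467 positive, 187 negative) and 4278 with the replicate block (1761 positive, 2517 negative). DESeq2 gave 573 positive and 868 negative. Leaving out 1 input library gave 107 to 3123 in all, 41 to 1730 positive and 57 to 1393 negative. Negative differences outnumbered positive ones in each of these fits except the one without L4 replicate 4. The cause was not tested.

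Among named genes no called direction turned under the alternatives run. Of the genes that were not called, dpy-7 ranged from -0.50 (without L4 replicate 4) to 1.22 when 1 library was left out, and unc-54 from -0.0552 to 0.58, with -0.0287 without L4 replicate 2. The value of egl-17 ranged from -0.53 to 0.26 when 1 library was left out, with -0.10 without L4 replicate 3 and -0.0361 without L4 replicate 4. It was -0.0202 with the 7 input libraries alone, -0.0147 with DESeq2, -0.0201 under RLE scaling and -0.00137 with no filter, and cog-1 was 0.41 under scaling on the neuronal set. Calls that did not pass under at least 1 alternative with all 7 libraries included lin-28, lin-41, nhr-85, myo-2, mlt-7 and ceh-18 under scaling on the neuronal set, clh-3 with DESeq2 (adjusted p = 0.0557), RLE scaling (0.0634) and no filter (0.126), and lin-11 with these 3 and with the 16 or 7 input libraries alone (0.0831 to 0.142). With the number as a replicate block on the 7 input libraries, 24 calls did not pass (adjusted p = 0.0517 to 0.315). They were lin-28, lin-41, lin-29, lin-39, lin-11, cdk-4, grd-13, bro-1, sqv-5, mtl-1, hlh-1, abu-8, vap-1, aqp-8 and clh-3. The others were tdc-1, nlp-29, nlp-27, nlp-12, dyf-11, tag-209, pqn-71, W08E12.6 and nhr-150. With that block 2 genes not called before passed, rol-6 (0.0366) and myo-3 (0.0464).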

Other observations

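Families that share a symbol prefix, chosen after their values were seen, moved mostly in one direction. Some of their members, such as ceh-16, ceh-6, ceh-18 and hlh-1, are also in the lists above. All 8 tested wht genes, of an ABC transporter family related to White, were higher at L4 (8 higher and 0 lower, median log2 fold change 5.15). Of 23 nep genes, which encode neprilysin-type metalloproteases, 15 rose and 1 fell (median 3.94). All 13 rpn genes for the regulatory particle of the proteasome rose (median 0.99), as did 19 of 25 npp genes for nuclear pore proteins, with 0 lower (median 0.99).

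Lower at L4 were the cnc genes, caenacin antimicrobial peptides, with 7 of 8 called and 0 higher (median -3.87), and the hlh genes for basic helix-loop-helix factors, with 14 of 20 called and 0 higher (median -2.60). Of 34 globin genes 28 fell and 0 rose (median -1.56), and of 42 glutathione S-transferase genes 23 fell and 0 rose (median -1.64). Potassium channel genes of the twk family fell in 26 of 44 cases and rose in 2. The homeobox genes with the prefix ceh fell in 31 of 59 cases and rose in 4. Without L4 replicate 4 the counts lower were 7 for cnc, 13 for hlh, 29 for globins, 24 for gst, 27 for twk and 32 for ceh genes, and the counts higher were 8 for wht, 15 for nep, 13 for rpn and 20 for npp genes.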
